A study of Mus musculus with 12 samples.

Results

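The genes described here act in G2 and in mitosis, the steps in which a cell with copied DNA enters division, separates its chromosomes and splits. They are a list of 45 genes chosen by name, with earlier results of these data known. Of these, 43 had a named probe set on the arrays, out of 19494 genes tested. Each of the 43 was measured by a single probe set. Expression of Ccnb1 and Foxm1 is not analysed here. The arrays measured RNA of haematopoietic stem cells (HSC) and multipotent progenitors (MPP) sorted from mouse bone marrow. Donor mice had the genotype Nfat5 fl/fl Vav-Cre, called NFAT5-deficient, or Nfat5 +/+ Vav-Cre, called wild-type, so that both carried the Cre driven by Vav, a promoter active across blood cells. Nfat5 encodes a transcription factor best known from the response to hypertonic stress. Donor marrow of the CD45.2 type was placed in irradiated wild-type CD45.1 hosts, and CD45.2+ cells were sorted 13 weeks later. Within the lineage-negative, Sca-1+, Kit+ compartment (LSK), HSC were CD48-CD150+ and MPP were CD48+CD150-. There were 3 arrays in each of the 4 groups, named here by group and by the number in the label: 66, 67 and 75 for wild-type cells and 64, 70 and 76 for NFAT5-deficient cells. Each array was made from 300 pg of RNA. The labels do not say that the arrays of a group came from separate mice, so p-values measure the spread between these samples, which may be technical.

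Cells make most of these transcripts in a burst late in the cycle and destroy them or their proteins on leaving mitosis. Cyclins with the kinase CDK1 drive entry, Aurora and Polo-like kinases build the spindle, kinetochore proteins tie chromosomes to it, and the spindle checkpoint holds the cell back until every chromosome is attached. The anaphase-promoting complex then ends mitosis by tagging cyclins for destruction, and a contractile ring divides the cell. Most HSC of adult marrow are held out of the cycle, while MPP divide more often. RNA from a sorted population is a sum over its cells, so fewer cells in mitosis and less RNA per cell cannot be told apart here.

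Genes of this late burst are known to share promoter elements: the CHR, a site read by the DREAM and MuvB complexes, and CCAAT boxes, bound by NF-Y. Promoter sequence was therefore set beside the expression values. The 4 stretches printed here are from Ska3 and Spdl1, the members that passed the test between HSC and MPP, and from Cdk1 and Cdc20, standard genes of mitotic entry and exit. Each runs from 120 bases before to 10 bases after the annotated start, 5′ to 3′ on the gene's strand, which is the minus strand for all 4. Capitals mark TTTGAA or its reverse complement TTCAAA (the core of the CHR) and CCAAT or its reverse complement ATTGG.
Ska3, chr14:57826154-57826283: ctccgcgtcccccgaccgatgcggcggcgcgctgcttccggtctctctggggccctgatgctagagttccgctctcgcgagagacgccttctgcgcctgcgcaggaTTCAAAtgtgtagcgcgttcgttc
Spdl1, chr11:34833632-34833761: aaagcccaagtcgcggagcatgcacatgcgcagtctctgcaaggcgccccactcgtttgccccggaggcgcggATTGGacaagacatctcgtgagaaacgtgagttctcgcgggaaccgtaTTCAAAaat
Cdk1, chr10:69352903-69353032: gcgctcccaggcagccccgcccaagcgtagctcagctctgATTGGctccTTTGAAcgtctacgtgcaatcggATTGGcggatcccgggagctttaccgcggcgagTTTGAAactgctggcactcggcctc
Cdc20, chr4:118437334-118437463: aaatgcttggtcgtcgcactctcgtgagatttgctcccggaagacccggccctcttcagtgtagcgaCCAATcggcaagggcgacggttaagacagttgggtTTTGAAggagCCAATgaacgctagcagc
The sequences and coordinates are RefSeq's for GRCm38.p6. Ska3 has 1 TTCAAA and no CCAAT in the printed stretch. Spdl1 has an ATTGG and a TTCAAA, and Cdk1 and Cdc20 hold both motifs on the printed strand or its complement.

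Promoters of 36 of the 45 listed genes were in the RefSeq table, Ccnb1 among them, with 39 starts in all, each covering 250 bases before to 50 after the start. TTTGAA on either strand stood in 31 of the 39 (79.5%, exact 95% binomial interval 63.5 to 90.7), against 17.9% of all 32851 promoters of that length. CCAAT on either strand stood in 76.9% of the 39 and in 37.4% of all promoters. It also stood in 64.6% of promoters of other mitosis genes, counted here with condensin and cohesin, and in 71.0% of those of G1/S and replication genes. A high CCAAT share was thus not particular to the listed genes. Both motifs stood in 69.2% of the 39 and in 6.95% of all promoters. In the promoters of other mitosis genes TTTGAA stood in 43.0%, and in those of G1/S and replication genes in 12.9%, so the site was more frequent in the listed genes than in genes that act earlier in the cycle. Of the 38 TTTGAA matches in the listed genes, 28 lay from 50 bases before the start onward. Sites of Ect2, Prc1 and Bub3 are counted from each of their neighbouring starts. Positions were not counted over all promoters, so this share has no comparison. Windows of neighbouring starts can overlap, so the interval treats as separate some that are not, and it covers counting error only. A match describes letters, and binding was not measured.

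On the arrays, the values are deposited log2 intensities, a scale on which a difference of 1 is a doubling. As a guide to background, 1080 olfactory receptor genes, which blood cells are not known to use, had a median of 4.92 and a 95th percentile of 6.35. Of the 43 genes, 36 lay above 6.35 on all 12 arrays. Group means at or under 6.35 occurred for 5 genes: Melk in 3 groups, Kif20a in both HSC groups, and Ska1, Ska3 and Racgap1 in wild-type HSC. The sizes of differences that involve those groups are not resolved.

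The plot of every gene by array shows the whole set, with values centred on each gene's mean.

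**Figure D1:**
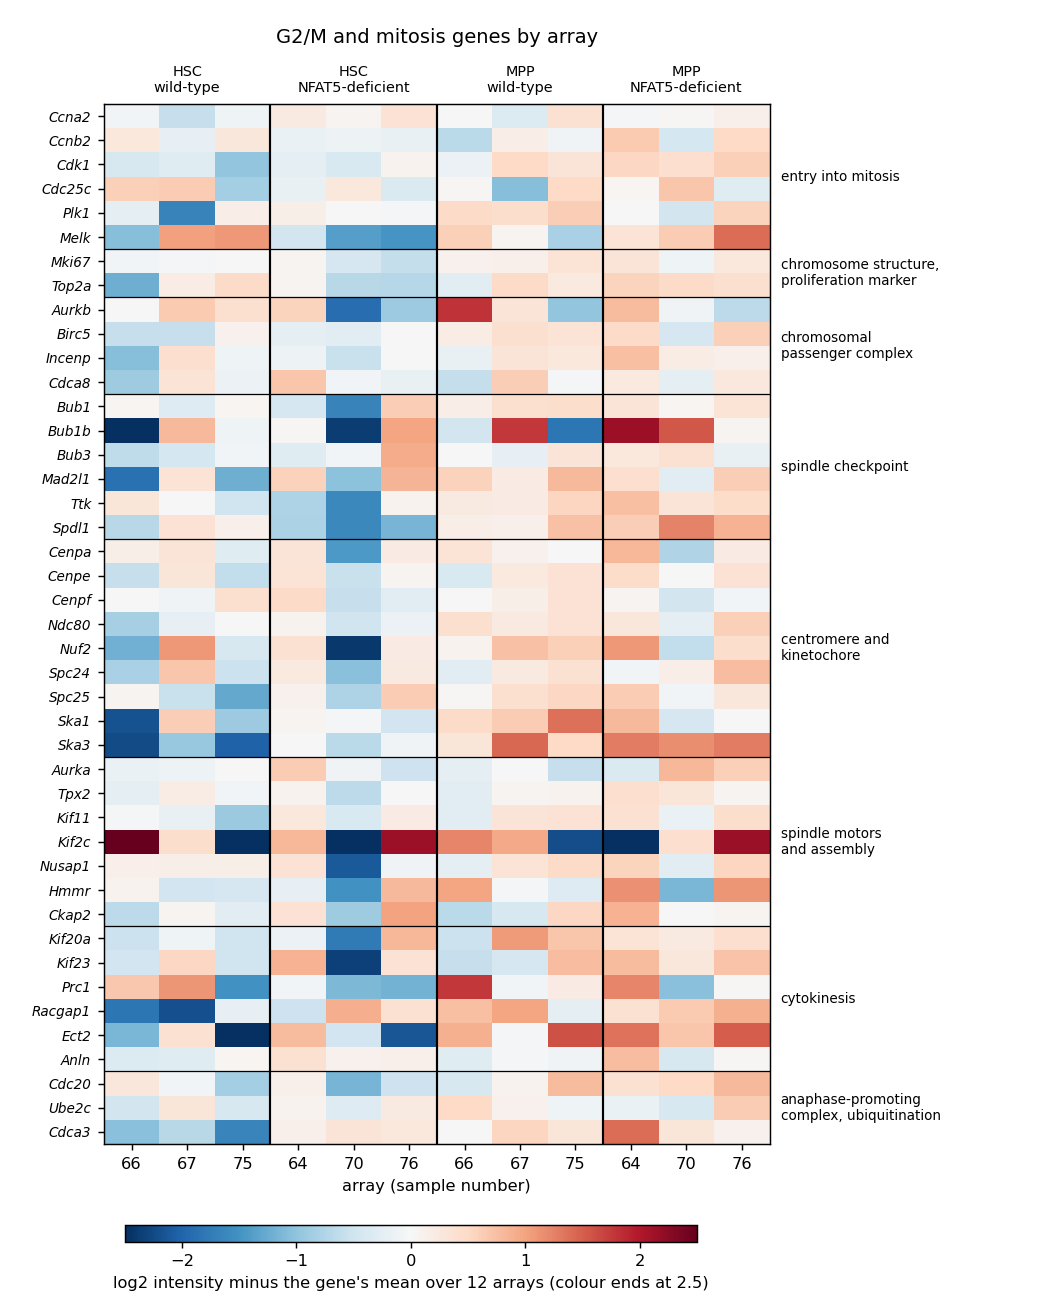
Heat map of the 43 measured genes (rows, ordered by role) on the 12 arrays (columns, by group; WT wild-type, KO NFAT5-deficient, with the label's number), coloured by log2 intensity minus the gene's mean over the 12 arrays. Most rows are lower in the 6 HSC columns than in the 6 MPP columns, and HSC KO 70 holds the lowest value of all 12 arrays for 15 genes.

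Mean log2 intensity over the 43 genes was lower in HSC than in MPP in both genotypes. Wild-type HSC arrays 66, 67 and 75 had means of 8.38, 8.89 and 8.39, and the wild-type MPP arrays 9.0, 9.15 and 9.07. NFAT5-deficient HSC arrays 64, 70 and 76 had means of 8.98, 8.02 and 8.88, and the NFAT5-deficient MPP arrays 9.37, 8.95 and 9.33. The wild-type HSC arrays all lay below the wild-type MPP arrays, and in NFAT5-deficient cells the HSC array 64 lay above the MPP array 70. HSC minus MPP by number was -0.61, -0.26 and -0.69 for wild-type 66, 67 and 75. It was -0.39, -0.92 and -0.45 for NFAT5-deficient 64, 70 and 76, so HSC was lower at every number. Wild-type HSC averaged 8.55 ± 0.29 (SD, n = 3) and wild-type MPP 9.07 ± 0.08 (SD, n = 3). NFAT5-deficient HSC averaged 8.63 ± 0.52 (SD, n = 3) and NFAT5-deficient MPP 9.22 ± 0.23 (SD, n = 3). Arrays of the genotypes overlapped in HSC and in MPP.

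**Figure D2:**
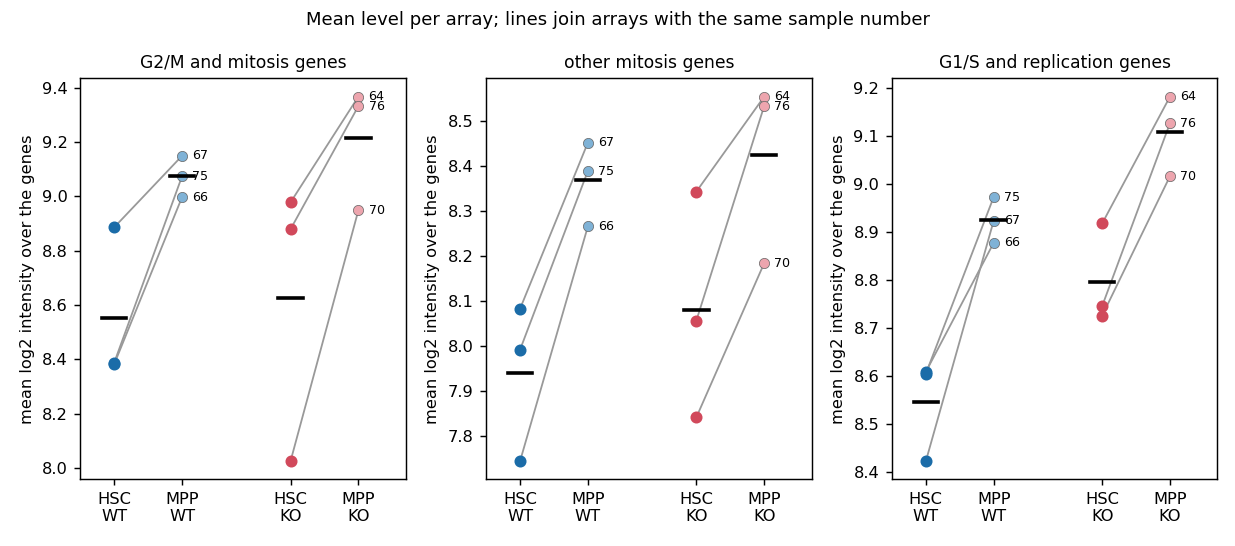
Mean log2 intensity per array (points) in 4 groups of 3 arrays (WT wild-type, KO NFAT5-deficient). Panels show the 43 genes, 70 other mitosis genes without condensin and cohesin, and G1/S and replication genes. Lines join HSC and MPP arrays with the same number, and bars mark group means. HSC means lie below MPP means for the 43 genes, at 8.55 and 8.63 against 9.07 and 9.22, and HSC KO 70 is the lowest of the 12 arrays at 8.02.

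Gene by gene, 38 of the 43 (88.4%) were lower in wild-type HSC than in wild-type MPP, against 41.4% of all genes tested. Among the 10707 genes with a mean above 6.35, 48.3% were lower. The median difference, HSC minus MPP, was -0.38 over the 43 and 0.05 over all genes, and single genes ranged from -2.48 to 0.40. Ska3 passed limma's test with Benjamini-Hochberg adjustment over all genes, so 1 of 43 (2.33%) fell, against 0.164% of all genes called in either direction and 0.0872% called lower. At an unadjusted p under 0.05 there were 10 of 43 (23.3%), each lower in HSC. Of all genes 8.9% reached it in either direction, and 767 of 19494 were lower. For 8 of the 43 (18.6%), all HSC arrays lay below all MPP arrays, as for 4.74% of all genes: Ska3, Cdca3, Cdk1, Plk1, Ndc80, Birc5, Mki67 and Bub1. None of the 43 showed the opposite separation, which 7.54% of all genes did.

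NFAT5-deficient cells gave a like count in their own comparison: 37 of 43 (86%) were lower in HSC, against 37.9% of all genes. The share was 45.7% among the 10707 genes with a mean above 6.35. The median difference was -0.40, against 0.07 over all genes, with a range from -2.09 to 0.18. Spdl1 was the 1 gene of 43 that fell by limma's adjusted test, and 0.21% of all genes were called, 0.118% lower. At an unadjusted p under 0.05 there were 8 (18.6%), all lower in HSC. Of all genes 7.9% reached it in either direction, and 575 of 19494 were lower. The 8 genes without overlap between the groups (18.6%, against 5.39% of all genes in that direction) were Spdl1, Ska3, Ttk, Melk, Cdk1, Cdc20, Top2a and Incenp. None separated upward, as 11.5% of all genes did. Ska3 and Cdk1 stand in both lists.

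Averaged over both genotypes, 40 of 43 (93%) were lower in HSC, against 36.6% of all genes. That share also stands beside the counts by role below. The median was -0.52, against 0.06 over all genes. Of the 10707 genes with a mean above 6.35, 45.8% were lower, with a median of 0.03. Limma called 2 of 43 (4.65%), Ska3 and Spdl1, both lower, against 0.61% of all genes called and 0.313% called lower. A further 11 reached an unadjusted p under 0.05, which made 13 of 43 (30.2%), each lower in HSC. Of all genes 12.2% reached it in either direction, and 919 of 19494 were lower. Among the 3 genes above 0, Anln, Kif2c and Cdc25c, the largest difference was 0.02. The 95% interval of a single gene's difference had a median half-width of 0.64 in this comparison and of 0.91 within a genotype, wider than most of the differences.

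**Figure D3:**
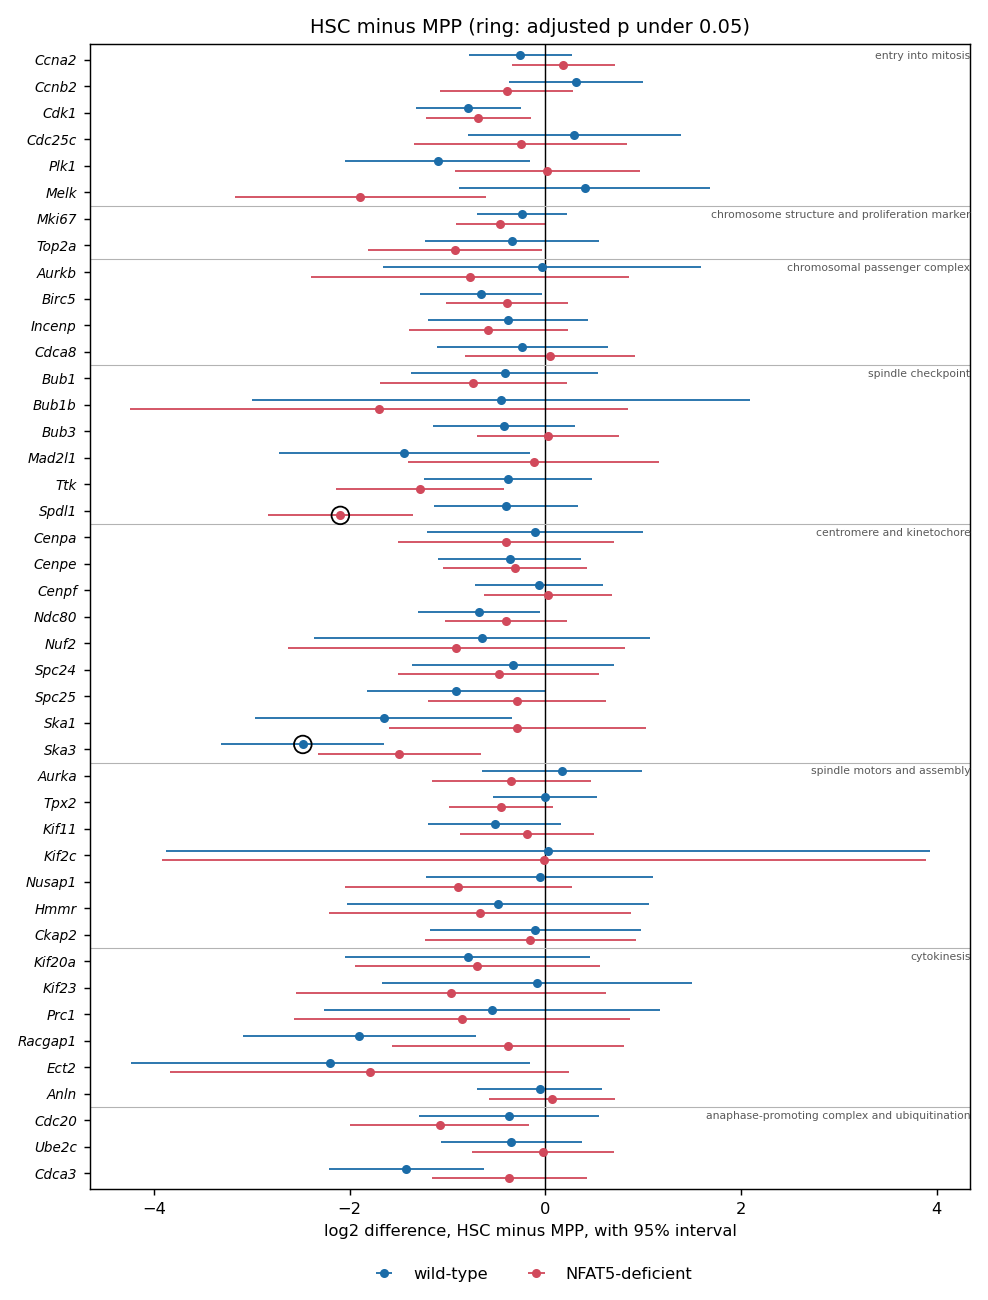
HSC minus MPP log2 difference with its 95% interval for each of the 43 genes (rows, by role), 1 colour per genotype; the vertical line marks 0 and rings mark an adjusted p under 0.05. Points lie left of 0 for 38 wild-type and 37 NFAT5-deficient differences, the lowest being Ska3 (-2.48) for wild-type and Spdl1 (-2.09) for NFAT5-deficient cells.

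Among the genes of entry into mitosis, 5 of 6 were lower in HSC over both genotypes (median -0.29) and none passed limma's adjusted test, with 1 at an unadjusted p under 0.05. That gene is Cdk1, the catalytic kinase of mitotic entry. Its log2 intensity was 9.36, 9.44 and 8.76 in wild-type HSC and 9.60, 10.24 and 10.08 in wild-type MPP. In NFAT5-deficient cells it was 9.53, 9.37 and 9.84 in HSC and 10.26, 10.18 and 10.35 in MPP. HSC and MPP arrays did not overlap within either genotype. The difference was -0.79 in wild-type, -0.69 in NFAT5-deficient cells and -0.74 over both (SE 0.17, adjusted p = 0.110 by limma).

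Plk1, the Polo-like kinase that promotes entry and spindle assembly, was 8.46, 7.02 and 8.86 in wild-type HSC and 9.17, 9.14 and 9.32 in wild-type MPP. Its NFAT5-deficient HSC values, 8.85, 8.71 and 8.67, lay within the NFAT5-deficient MPP range of 8.23 to 9.25. The difference was thus -1.10 in wild-type cells and 0.02 without NFAT5, and the difference between these values, 1.12 with a 95% interval of -0.22 to 2.45, was not called by limma. Cyclins Ccna2 and Ccnb2, partners of CDK1, differed by -0.04 each over both genotypes. Cdc25c, the phosphatase that activates CDK1, differed by 0.02.

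Mki67, whose protein coats mitotic chromosomes and is the usual marker of cycling cells, was 9.79, 9.80 and 9.86 in wild-type HSC and 9.97, 9.997 and 10.20 in wild-type MPP. In NFAT5-deficient cells it was 9.93, 9.45 and 9.27 in HSC and 10.17, 9.74 and 10.12 in MPP. The wild-type arrays separated by a small step, and the NFAT5-deficient ones overlapped. Over both genotypes the difference was -0.35 (95% interval -0.67 to -0.03, adjusted p = 0.377 by limma).

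Top2a, the topoisomerase that untangles sister chromosomes, was 9.10, 10.52 and 10.80 in wild-type HSC and 10.06, 10.81 and 10.57 in wild-type MPP. In NFAT5-deficient cells it was 10.40, 9.64 and 9.63 in HSC and 10.89, 10.81 and 10.72 in MPP, without overlap. The difference over both genotypes was -0.63 (95% interval -1.26 to -0.0024, adjusted p = 0.409 by limma), and -0.37 without wild-type HSC 66.

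The 4 genes of the chromosomal passenger complex, which corrects faulty attachments, were all lower in HSC over both genotypes (median -0.44), with none called and 1, Birc5, at an unadjusted p under 0.05. Birc5 encodes survivin, and differed by -0.52. Aurkb, the kinase of the complex, ranged more widely: 9.05, 9.71 and 9.45 in wild-type HSC and 10.85, 9.38 and 8.07 in wild-type MPP. Its NFAT5-deficient values were 9.60, 7.15 and 8.14 in HSC and 9.84, 8.96 and 8.39 in MPP. Its difference of -0.40 had a 95% interval of -1.55 to 0.75 over both genotypes, so a fall and a rise are both within its error. Single arrays moved it from -0.046, without wild-type MPP 66, to -0.74, without wild-type MPP 75. It was -0.11 without NFAT5-deficient HSC 70, -0.21 without NFAT5-deficient MPP 64 and -0.73 without NFAT5-deficient HSC 64.

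All 6 spindle checkpoint genes were lower in HSC over both genotypes (median -0.80). Spdl1 fell, and Ttk, a checkpoint kinase, reached an unadjusted p under 0.05 with -0.83. Spdl1 encodes Spindly, which brings dynein to kinetochores. Its log2 intensity was 8.54, 9.59 and 9.36 in wild-type HSC and 9.40, 9.35 and 9.96 in wild-type MPP, which overlap. In NFAT5-deficient cells it was 8.44, 7.62 and 8.06 in HSC and 9.85, 10.46 and 10.09 in MPP, a clear gap. The difference was -0.40 in wild-type (95% interval -1.14 to 0.34), -2.09 in NFAT5-deficient cells (SE 0.33, adjusted p = 0.0474 by limma) and -1.25 over both (SE 0.24, adjusted p = 0.0484). Both calls lie close to the threshold: in the fits that left out a single array, the NFAT5-deficient call was kept in 1 of 12, without wild-type HSC 66, and the call over both genotypes in 1 of 12, without wild-type HSC 67.

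The other checkpoint genes were less even. Bub1b, the scaffold BUBR1, ran from 6.96 to 11.66 over the 12 arrays, and its difference of -1.08 had a 95% interval of -2.88 to 0.72. Mad2l1, which carries the wait signal, differed by -1.44 in wild-type cells and -0.12 without NFAT5.

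Each of the 9 centromere and kinetochore genes was lower in HSC over both genotypes (median -0.54). Ska3 fell, and Ndc80 and Ska1 reached an unadjusted p under 0.05 with -0.54 and -0.97. Ska3 belongs to the SKA complex, which keeps kinetochores on growing and shrinking microtubules. On wild-type HSC arrays 66, 67 and 75 it read 4.88, 6.18 and 5.09, all within the range of olfactory receptor genes, and on wild-type MPP arrays 7.43, 8.55 and 7.61. NFAT5-deficient HSC read 7.12, 6.44 and 7.02 and NFAT5-deficient MPP 8.39, 8.29 and 8.39. All 6 HSC arrays lay below all 6 MPP arrays, which was so for this gene alone of the 43 (2.33%) and for 0.575% of all genes, while 0.759% of all genes were separated the other way.

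The Ska3 difference was -2.48 in wild-type (SE 0.38, adjusted p = 0.0388 by limma), -1.49 in NFAT5-deficient cells (adjusted p = 0.278) and -1.99 over both (SE 0.27, adjusted p = 0.00751). Over both genotypes it was called in all 12 fits that left out a single array, with adjusted p from 0.00332 to 0.0269. The wild-type call was kept in 2 of those 12, without wild-type HSC 67 (adjusted p = 0.0175) or NFAT5-deficient HSC 70 (adjusted p = 0.0477), and was lost when the wild-type groups were fitted alone (adjusted p = 0.259).

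Of the spindle motors and assembly factors, 6 of 7 were lower in HSC over both genotypes, with a median of -0.23, none called and none at an unadjusted p under 0.05. Aurka, the kinase of spindle poles, was 7.92, 7.95 and 8.10 in wild-type HSC and 7.84, 8.09 and 7.52 in wild-type MPP. Its activator Tpx2 differed by -0.0038 in wild-type cells and -0.45 without NFAT5. Kif2c, a microtubule depolymerase, was singled out after its values were seen: it ran from 4.75 to 10.49 over the arrays, while its 4 group means lay between 7.81 and 7.84.

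Of the cytokinesis genes, 5 of 6 were lower in HSC over both genotypes (median -0.72), with none called and 2 at an unadjusted p under 0.05, Ect2 and Racgap1. Both act on the contractile ring, Ect2 as an activator of RhoA and Racgap1 as its partner in the central spindle. Ect2 was 8.44, 9.95 and 6.18 in wild-type HSC and 10.46, 9.54 and 11.17 in wild-type MPP. In NFAT5-deficient cells it was 10.36, 9.11 and 7.44 in HSC and 10.93, 10.26 and 11.09 in MPP. Its difference over both genotypes, -2.0, was close in size to that of Ska3, with a 95% interval of -3.44 to -0.55 and an adjusted p of 0.264 by limma.

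The 3 genes of the anaphase-promoting complex and ubiquitination were lower in HSC over both genotypes (median -0.73), with none called and Cdc20 and Cdca3 at an unadjusted p under 0.05. Cdc20, the activator of the complex at anaphase, was 8.07, 7.72 and 6.95 in wild-type HSC and 7.39, 7.87 and 8.58 in wild-type MPP. In NFAT5-deficient cells it was 7.92, 6.63 and 7.27 in HSC and 8.18, 8.29 and 8.60 in MPP. Groups overlapped in wild-type and not in NFAT5-deficient cells, and the difference over both was -0.73 (SE 0.29, adjusted p = 0.368 by limma).

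**Figure D4:**
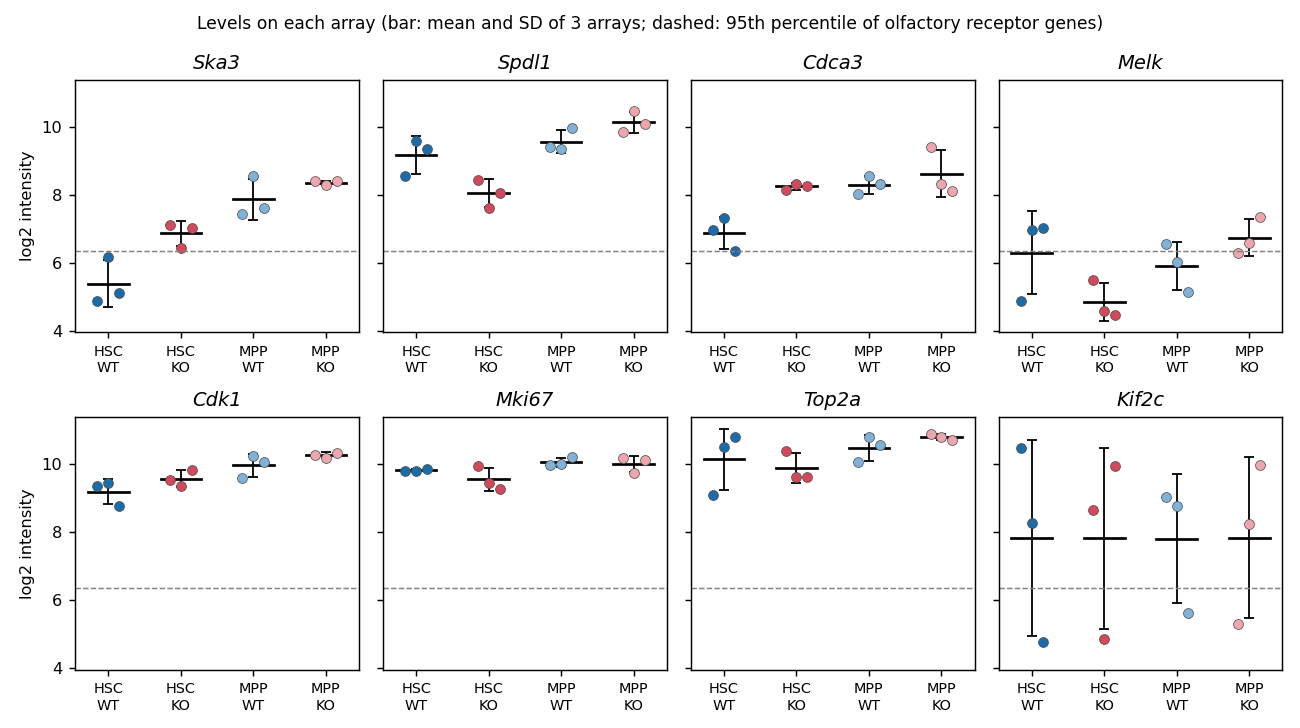
Log2 intensity on each array (points) for 8 genes in the 4 groups of 3 arrays (WT wild-type, KO NFAT5-deficient), on 1 shared axis; bars give the mean and SD of 3 arrays, and the dashed line is the olfactory receptor threshold of 6.35. Ska3 separates all HSC from all MPP arrays, Spdl1 separates them in NFAT5-deficient cells, and Kif2c runs from 4.75 to 10.49 with equal group means.

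Other genes of the same process were read from further lists, which do not overlap the 43. These lists too were chosen with earlier results of these data known, so they are not independent of the data. Of 84 measured other mitosis genes, with condensin and cohesin, 69 (82.1%) were lower in HSC over both genotypes, against 36.6% of all genes. Their median was -0.36. Limma called none of the 84 (0.61% of all genes), and 15 (17.9%) had an unadjusted p under 0.05, each lower in HSC. The share of all genes was 12.2% in either direction, with 919 of 19494 lower. Their medians were -0.29 in wild-type cells and -0.27 without NFAT5. Of 33 G1/S and replication genes, 30 (90.9%) were lower in HSC over both genotypes, with a median of -0.29. Among those 33, 1 fell, Pola1, named after its value was seen, the catalytic subunit of DNA polymerase alpha, at -0.79 (adjusted p = 0.0424 by limma), and 11 (33.3%) had an unadjusted p under 0.05, a share near the 30.2% of the 43. The 15 subunits of the anaphase-promoting complex, which most cells make throughout the cycle, had a median of -0.04.

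Loss of NFAT5 was then compared with wild-type within each population, and cell division itself was not measured. In HSC, limma called none of the 43 (0 of all genes, 0%), and 5 (11.6%) had an unadjusted p under 0.05, against 6.18% of all genes. The median difference, NFAT5-deficient minus wild-type, was 0.02 over the 43, -0.05 over all genes and -0.01 over the 10707 with a mean above 6.35. Below 0 were 19 of 43 (44.2%), against 58.4% of all genes and 51.1% of those 10707. The 43 thus lay on both sides of 0.

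In 3 of the 5 genes the NFAT5-deficient value was higher. Racgap1 was 5.83, 5.45 and 7.44 in wild-type HSC and 7.13, 8.56 and 8.02 in NFAT5-deficient HSC, a difference of 1.66 (SE 0.54, adjusted p = 0.779 by limma), with overlap and with a wild-type mean under the olfactory receptor threshold. Ska3, with the values given above, differed by 1.48 (SE 0.38, adjusted p = 0.772), and its wild-type arrays were within the olfactory receptor range. Cdca3, a trigger of mitotic entry that acts through protein destruction, was 6.95, 7.31 and 6.35 in wild-type HSC and 8.14, 8.33 and 8.27 in NFAT5-deficient HSC. Its groups did not overlap, and the difference was 1.37 (SE 0.36, adjusted p = 0.772). In MPP Cdca3 was 8.02, 8.55 and 8.31 against 9.40, 8.32 and 8.12, which overlap.

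The other 2 were lower in NFAT5-deficient HSC. Spdl1 differed by -1.13 (SE 0.33, adjusted p = 0.772 by limma), without overlap. Melk, a kinase that peaks in mitosis, was 4.88, 6.98 and 7.04 in wild-type HSC and 5.49, 4.57 and 4.47 in NFAT5-deficient HSC, a difference of -1.45 (adjusted p = 0.787), with most values within the olfactory receptor range. In total 4 of 43 (9.3%) were separated upward, Ska3, Cdca3, Ccna2 and Anln, against 3.55% of all genes, and 1 (2.33%), Spdl1, downward, against 6.61%.

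In MPP, limma called none of the 43 (0.00513% of all genes called), none had an unadjusted p under 0.05 (5.35% of all genes) and none separated the groups (3.8% of all genes upward and 8.84% downward). The median difference was 0.14 over the 43, -0.07 over all genes and -0.02 over the 10707 with a mean above 6.35. Below 0 were 15 of 43 (34.9%), against 61.1% of all genes and 53.2% of those 10707. The largest difference was that of Bub1b, 1.42, with a 95% interval of -1.13 to 3.97. Melk followed with 0.84 (adjusted p = 0.899 by limma), which was 0.46 without wild-type MPP 75 and 0.54 without NFAT5-deficient MPP 76. Its wild-type MPP mean, 5.89, lay under 6.35, so the size is not resolved. Aurka was 7.84, 8.09 and 7.52 in wild-type and 7.72, 8.91 and 8.69 in NFAT5-deficient MPP, a difference of 0.62 with a 95% interval of -0.19 to 1.44, which was 0.39 without NFAT5-deficient MPP 70 and 0.98 without NFAT5-deficient MPP 64. Spdl1, low in NFAT5-deficient HSC, differed by 0.57 in MPP (adjusted p = 0.896). For Mki67 the MPP difference was -0.04 (95% interval -0.50 to 0.41) and the HSC difference -0.27 (95% interval -0.72 to 0.19).

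**Figure D5:**
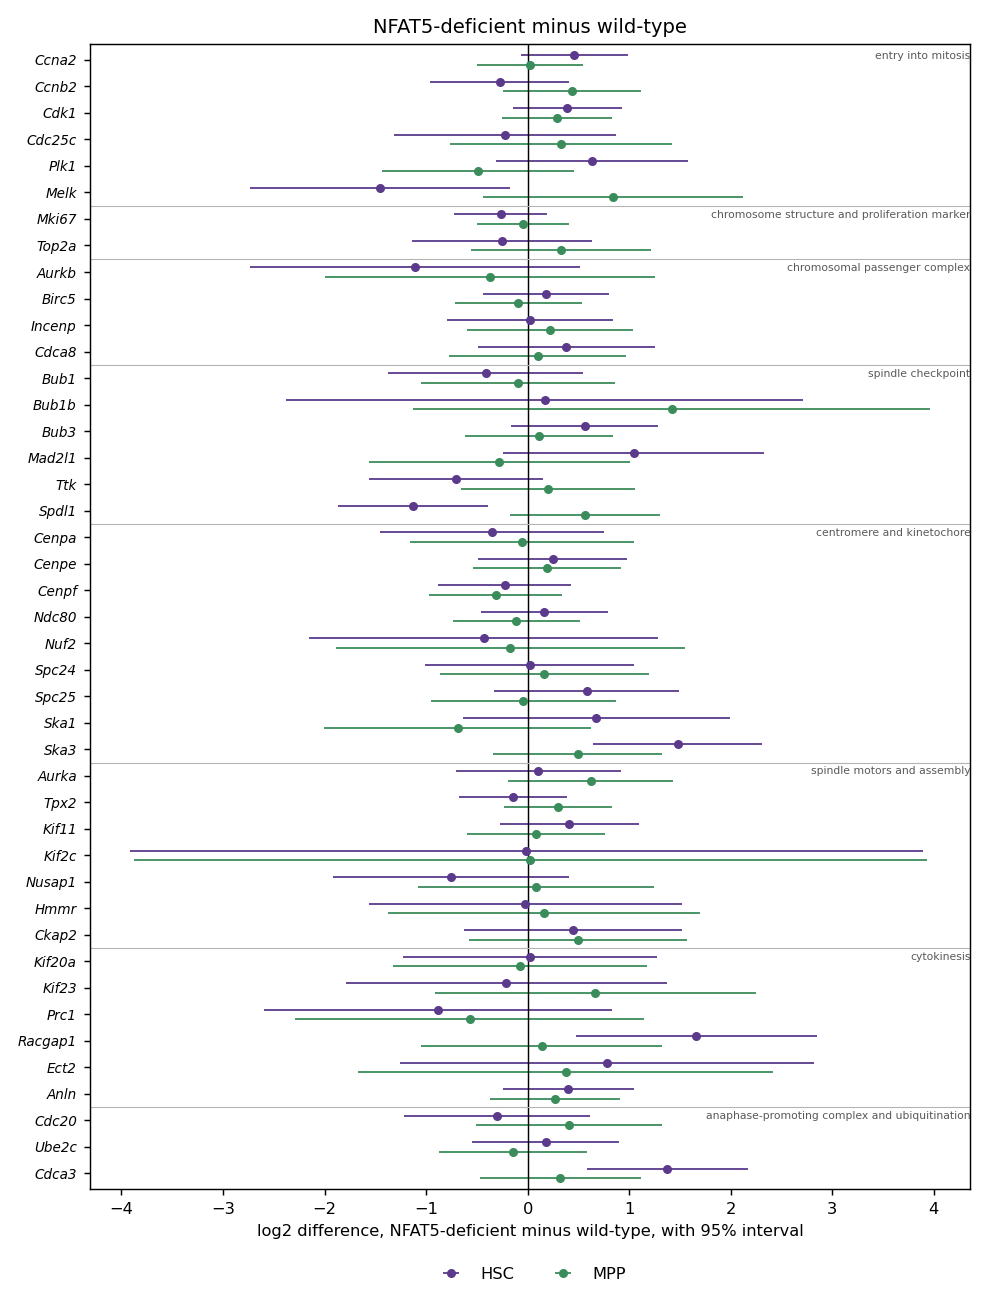
NFAT5-deficient minus wild-type log2 difference with its 95% interval for each of the 43 genes, in HSC and in MPP, ordered by role; the vertical line marks 0. Intervals clear of 0 are seen for 5 genes in HSC (Racgap1, Ska3, Cdca3, Spdl1 and Melk) and for none in MPP.

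Whether the NFAT5 difference itself differed between HSC and MPP was tested as an interaction. Limma called none of the 43 (0% of all genes), and 2 (4.65%) had an unadjusted p under 0.05, against 4.19% of all genes. They were Spdl1, at -1.69 (SE 0.47, adjusted p = 0.999), and Melk, at -2.29 (SE 0.82, adjusted p = 0.999). Melk had 3 group means under the olfactory receptor threshold, so the size of its value is not resolved. The comparisons within genotypes and those within populations share arrays, so Spdl1's low values in NFAT5-deficient HSC enter its HSC minus MPP, its NFAT5 and its interaction value alike.

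The 43 genes varied between arrays of 1 group more than other genes did. Their median within-group SD was 0.48 in wild-type HSC, 0.56 in NFAT5-deficient HSC, 0.36 in wild-type MPP and 0.43 in NFAT5-deficient MPP. Over the 10707 genes with a mean above the olfactory receptor threshold it was 0.35, 0.30, 0.31 and 0.26 in the same order. NFAT5-deficient HSC 70 was the lowest of its group for 29 of the 43 genes (34.7% of all genes), and NFAT5-deficient MPP 70 of its own for 27 (30.3% of all genes), with 20 genes in both counts. Wild-type 66 was the lowest for 23 genes in HSC (29.0% of all genes) and 24 in MPP (26.8%), with 14 in both. NFAT5-deficient 64 was the highest for 24 in HSC (27.5% of all genes) and 22 in MPP (30.3%), with 14 in both. These 3 of 12 counts were picked after their values were seen, and over the other 9 the number in both ran from 1 to 8. Arrays at the end of so many genes in each population share some genes in any case, so these counts cannot decide whether arrays of 1 number are linked. By the mean over the 43, numbers stood in the same order in HSC and MPP. From the highest, it was 67, 75 and 66 in wild-type and 64, 76 and 70 in NFAT5-deficient cells. Wild-type HSC 75 and 66 were almost equal, at 8.387 and 8.382. Whether arrays of 1 number are linked was not tested.

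The medians move with these arrays. Without NFAT5-deficient HSC 70, the median NFAT5 difference in HSC over the 43 was 0.45 in place of 0.02, and the NFAT5-deficient HSC minus MPP median was -0.20 in place of -0.40. Without wild-type HSC 66, the wild-type median was -0.23 in place of -0.38. With both arrays left out, a setting chosen after seeing the data, the median over both genotypes was -0.25, Ska3 was still called (adjusted p = 0.0465 by limma) and Spdl1 was not (adjusted p = 0.112). HSC lay below MPP in the median in each of these fits.

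Sorting markers matched the gates. Slamf1, which encodes CD150, was 9.84 and 10.08 in the HSC groups and 6.26 and 6.46 in the MPP groups, and Cd48 was 6.48 and 6.5 in HSC and 9.92 and 10.28 in MPP. Nfat5 itself read 9.49 ± 0.29 against 8.24 ± 0.58 in HSC, wild-type first, and 8.58 ± 0.41 against 7.92 ± 0.42 in MPP (SD, n = 3 each). Its arrays did not overlap in HSC (lowest wild-type 9.27, highest NFAT5-deficient 8.76). They did overlap in MPP (lowest wild-type 8.12, highest NFAT5-deficient 8.40). Limma called Nfat5 in neither population. The smallest adjusted p by limma was 0.573 over all genes in HSC and 0.0624 over genes with a mean above 6.35 in MPP. A test that did not call the deleted gene can also miss differences of the 43. All NFAT5-deficient arrays stayed above 6.35, and the place of the Nfat5 probes relative to the deleted exons was not checked here. The mean over 9 neutrophil markers ran from 5.52 to 7.38 in wild-type HSC and from 5.42 to 5.53 in NFAT5-deficient HSC, and from 5.96 to 7.02 and 6.01 to 6.62 in the MPP groups. Between HSC and MPP, array means over monocyte markers were 5.63 to 6.10 against 6.19 to 7.48, and those over megakaryocyte markers 8.34 to 8.89 against 7.37 to 7.93. The part of other cells in the differences of the 43 genes was not tested.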

How the data were processed

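RNA of 12 sorted samples was measured on single-colour arrays. The authors deposited log2 intensities for each probe set. RMA and limma stand in the submitters' processing notes, with no version or role. RMA summarises and quantile-normalizes probes, which compresses fold changes of dim genes. The platform annotation, whose symbols can be old, named 1 gene for 19527 of 22142 probe sets and none for 2615 (11.8%). For 33 genes with several probe sets the brightest was taken, which left 19494 genes, with no filter. Scanner files and batches were not used here. The number of arrays limits the precision.

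The test was limma 3.58.1 under R 4.3.3, in 1 fit of 4 group means over the 12 arrays, with an intensity-dependent variance prior and Benjamini-Hochberg adjustment over all genes tested; called means an adjusted p under 0.05, and rose or fell is written of called genes. Members and lists were chosen with earlier results of these data known. Genes chosen to be named with values by array were Mki67, Top2a, Cdk1, Plk1, Aurkb and Cdc20 and, per comparison, the members with the smallest p. Of Melk only the HSC values are printed, and of Aurka all but those of NFAT5-deficient HSC. Plk1 has a range for NFAT5-deficient MPP. Others were named by role or after their values were seen. Promoters are RefSeq's (GRCm38.p6). Drawings used Python 3.11.15 and matplotlib 3.10.9.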

Additional observations from a re-analysis of the deposited data

How the results depend on the processing

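Alternatives were a filter on dim genes, the variance prior, fits of only the groups compared, centring, quantile normalization, array weights, the mean of probe sets, the number as a replicate block, a looser threshold, and leaving out each array. The medians over the 43 genes for HSC minus MPP were below 0 in the fits that can move them (dim genes left out, centring, quantile normalization, array weights and leaving out arrays; the other settings leave group means of these genes as they are), with leave-one-out ranges of -0.53 to -0.23 in wild-type, -0.64 to -0.20 in NFAT5-deficient cells and -0.62 to -0.32 over both. The NFAT5 median ranged from -0.091 (without NFAT5-deficient HSC 76) to 0.45 in HSC, from 0.01 to 0.28 in MPP, and the interaction median from -0.25 to 0.31; with both outlying HSC arrays left out the interaction median was 0.19. These HSC and interaction medians have no settled sign. Leaving out single arrays, the 43 held 0 to 1 called genes in wild-type, 0 to 1 in NFAT5-deficient cells and 1 to 2 over both. Robust eBayes, quantile normalization and the fixed replicate block each gave 0 in NFAT5-deficient cells and 1 over both; fits of only the groups compared gave 0 in each genotype; leaving out both arrays gave 0, 0 and 1. Calls over all genes ran from 5 to 72 in wild-type (32 in the reported fit), 3 to 62 in NFAT5-deficient cells (41) and 52 to 218 over both (119), and in NFAT5 comparisons from 0 to 3 in HSC and 0 to 7 in MPP. The labels do not say that a number marks a mouse, so the arrays were not treated as pairs. Same-numbered arrays did not deviate together over all genes (correlations of -0.01 to 0.06, none of 6 over 0.1). A correlation over all genes cannot settle whether they do so for the 43, which was not tested. With the number as a random replicate block (consensus correlation 0.05) the counts of called members did not change. Counting TTTGAA on the gene's strand alone gave 56.4% against 10.2% of all promoters, and a window from 150 bases before the start 76.9% against 11.2%. Causes of these shifts were not tested.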
